A study of Mus musculus with 28 samples.

Results

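The mouse ortholog of C9orf72 and 8 further genes whose human counterparts are mutated in amyotrophic lateral sclerosis (ALS), or act as risk genes for it, were followed in the frontal cortex of mice with an ALS mutation in Tardbp. The 9 genes were taken by name from the deposited table of read counts, in which C9orf72 carries its clone name 3110043O21Rik. The others were Nek1, Tbk1, Optn, Sqstm1, Vcp, Ubqln2, Atxn2 and Sod1, and the 9 stood among 25900 gene identifiers. They were chosen by name, with earlier results of these data known.

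PolyA RNA of frontal cortex was sequenced in 28 libraries from C57BL/6 mice that were 20 months old. Of these, 10 came from homozygous (HOM, Q331K/Q331K) animals, 10 from heterozygous (HET, Q331K/+) animals and 8 from wild-type (WT, +/+) animals. Q331K is a knock-in substitution in TDP-43, the RNA-binding protein that Tardbp encodes, so the mutant protein was made from the gene's own locus in every cell that uses it. No other allele or treatment is recorded in the labels, and neither sex, litter nor batch is given. Nothing in the labels ties each numbered library to a separate animal, so every p-value here reflects spread among libraries, part of which may be technical.

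Several of the 9 genes act in a common pathway. TBK1 is a kinase that phosphorylates the autophagy receptors optineurin (Optn) and p62 (Sqstm1), which carry ubiquitinated cargo to the autophagosome, and the C9orf72 protein works at the same membranes in a complex with SMCR8 and WDR41. VCP and ubiquilin-2 (Ubqln2) handle ubiquitinated proteins on their way to the proteasome. Ataxin-2 binds RNA in stress granules, NEK1 is a kinase of the primary cilium and of DNA repair, and SOD1 removes superoxide in the cytosol.

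Library totals ran from 30.5 to 62.6 M counts (M for 1000000 reads) in HOM, 45.0 to 74.9 M in HET and 46.5 to 64.1 M in WT, and HOM 2 and HOM 1 were the shallowest. All 9 genes passed the filter on low counts, and the lowest count of any of them was 595 reads, for Optn. Levels are given in CPM, counts per M reads of a library after scaling between libraries. Markers of excitatory cortical neurons, all 8 present in every library, summed to 6022 to 7210 CPM in HOM, 6355 to 7030 in HET and 6145 to 6691 in WT. Striatal markers summed to 224 to 531 CPM in HOM, 223 to 349 in HET and 198 to 651 in WT. The 8 markers of choroid plexus and ependyma summed to 6.79 to 15.5 CPM in HOM, 7.24 to 10.7 in HET and 7.34 to 14.6 in WT. Of these markers only Otx2 was at 0 in any library. Tardbp itself stood at 349 ± 18.9 CPM in HOM (SD, n = 10), 328 ± 13.3 in HET (n = 10) and 321 ± 13.6 in WT (n = 8), a log2 fold change of 0.12 for HOM over WT (SE 0.032, adjusted p = 0.0185, edgeR quasi-likelihood test). The gene's level does not show which allele it came from.

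Of the 9 genes, 3 fell in HOM cortex against WT: 3110043O21Rik, Nek1 and Tbk1. Their levels were 0.914, 0.899 and 0.939 of the WT level, and none of the 9 rose. Over all 16110 genes tested, 7.61% were called in either direction, 3.71% lower and 3.9% higher, at an adjusted p under 0.05 (edgeR quasi-likelihood test, Benjamini-Hochberg over all genes tested), the threshold used throughout. Of the 9 genes, 8 had a log2 fold change below 0, against 7687 of the 16110, and their median was -0.044 against 0.005 over all genes tested. These are bulk tissue values, in which fewer cells of a type and less RNA per cell cannot be told apart.

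**Figure D1:**
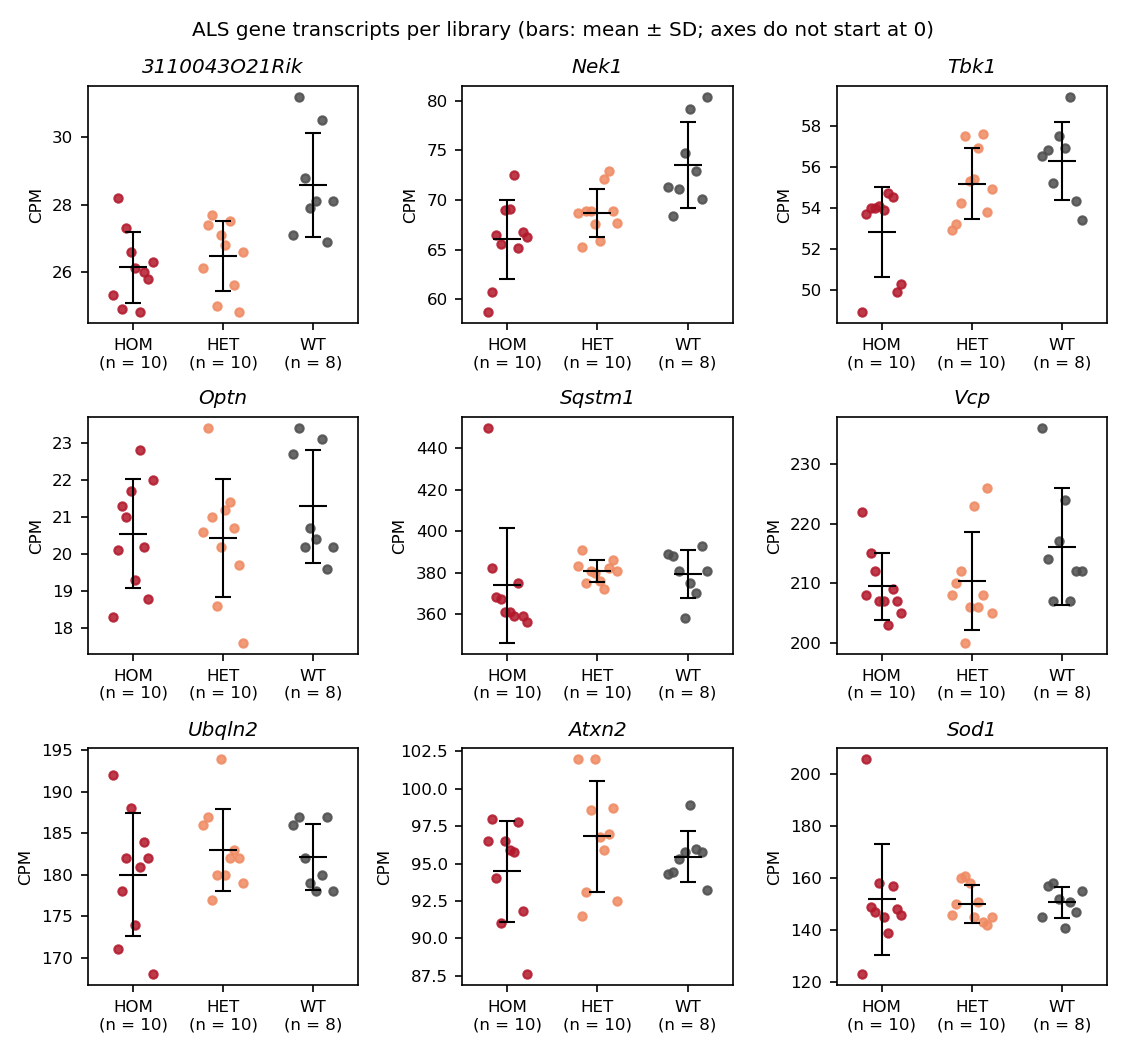
CPM (y axis, not starting at 0) of each ALS gene in 10 HOM, 10 HET and 8 WT libraries, 1 point per library, with the mean and SD as bars. For 3110043O21Rik and Nek1 all 10 HOM and all 10 HET points lie below the WT mean, and single HOM libraries stand apart for Sqstm1 (450 CPM) and Sod1 (206 CPM).

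3110043O21Rik (ENSMUSG00000028300, chr4:35191285-35226175, minus strand, GRCm38) is the gene whose human counterpart carries the GGGGCC repeat expansion of familial ALS and frontotemporal dementia. The human repeat lies between the first exons, so the 48 bases between the annotated first exons of the mouse gene are shown, from the RefSeq promoter window (GRCm38.p6, chr4:35225881-35225928, minus strand), 5′ to 3′, with GC boxes (GGGCGG on either strand, which may overlap a GGGGCC) in capitals.
3110043O21Rik: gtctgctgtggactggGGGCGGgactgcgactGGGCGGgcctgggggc
The stretch held 2 GC boxes and no GGGGCC. The whole window of 250 bases before the RefSeq start (chr4:35225837-35226086) lies within the gene as placed above. It held 5 GC boxes and 1 GGGGCC on either strand. Of 32851 mouse promoter windows of that length, 32.7% held a GC box and 22% held GGGGCC.

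In HOM libraries 3110043O21Rik had 24.8 CPM at the lowest, 26.0 at the median and 28.2 at the highest. In HET libraries the same values were 24.8, 26.7 and 27.7 CPM, and in WT libraries they were 26.9, 28.1 and 31.2 CPM. The HOM and WT groups overlapped: 8 of 10 HOM libraries were under the lowest WT library and all 10 lay below the WT mean, but the highest, HOM 2 at 28.2 CPM, lay above the WT median. Means were 26.1 ± 1.06 CPM in HOM and 28.6 ± 1.52 CPM in WT (SD, n = 10 and 8), a log2 fold change of -0.130 (SE 0.032, 95% interval -0.194 to -0.065, adjusted p = 0.0137, edgeR quasi-likelihood test), or 0.914 of the WT level. The call held without any single library, where the log2 fold change ran from -0.144 to -0.111. It ended when WT 6 and HOM 3 were left out together (-0.108, adjusted p = 0.0629) and with meningeal and endothelial marker scores as covariates (-0.132, adjusted p = 0.118). That pair was picked after seeing the data. WT 6 had 30.5 CPM and HOM 3 had 24.9 CPM, so leaving both out narrows the difference. An exon of Gm12367 overlaps the gene on the other strand over 247 bases, but that gene reached at most 0.710 CPM in any library.

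The HET libraries stood close to the HOM ones for this gene. All 10 HET libraries lay below the WT mean of 28.6 CPM, at a mean of 26.5 ± 1.05 CPM, and 6 of them were under the lowest WT library. The log2 fold change of HET over WT was -0.109 (SE 0.032, 95% interval -0.174 to -0.045, unadjusted p = 0.00158, adjusted p = 0.366, edgeR quasi-likelihood test), so the difference did not pass over all genes. HOM over HET gave -0.020 (95% interval -0.082 to 0.041, adjusted p = 0.909). The departure of HET from the midpoint of HOM and WT, as HOM plus WT minus 2 times HET, was 0.089 on the log2 scale (95% interval -0.019 to 0.197, adjusted p = 1), which does not tell a step at the first allele from equal steps.

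The SMCR8 and WDR41 proteins bind C9orf72 in its complex. Smcr8 had 50.0 ± 1.92 CPM in HOM, 51.2 ± 1.42 in HET and 51.7 ± 0.433 in WT (SD, n = 10, 10 and 8), and its HOM over WT log2 fold change was -0.048 (95% interval -0.095 to -0.000, adjusted p = 0.2). Wdr41 had 31.5 ± 1.31 CPM in HOM, 31.2 ± 0.892 in HET and 31.3 ± 0.756 in WT, with a log2 fold change of 0.009 (95% interval -0.044 to 0.062, adjusted p = 0.87). Neither gene passed the test. Of 17 genes for the complex, its Rab GTPases and the autophagy-initiating kinase complex it meets, 12 lay below 0 in HOM (median -0.033). In this list 1 was called lower and none higher, against 7.61% of all genes tested called in either direction. That gene was Rab39b, a small GTPase of vesicle traffic, at 45.6 ± 2.72 CPM in HOM and 50.0 ± 1.88 in WT, with a log2 fold change of -0.133 (SE 0.038, adjusted p = 0.0293). Its call ended without HOM 2, WT 7 or WT 8.

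Tbk1 (ENSMUSG00000020115, chr10:121546455-121586794, minus strand, GRCm38) encodes the kinase that activates optineurin and p62. Its upstream window is shown as that of the other called gene for which RefSeq gave one: 250 bases before the start (GRCm38.p6, chr10:121586795-121587044, minus strand), 5′ to 3′, with GC boxes in capitals, here read as CCGCCC.
Tbk1: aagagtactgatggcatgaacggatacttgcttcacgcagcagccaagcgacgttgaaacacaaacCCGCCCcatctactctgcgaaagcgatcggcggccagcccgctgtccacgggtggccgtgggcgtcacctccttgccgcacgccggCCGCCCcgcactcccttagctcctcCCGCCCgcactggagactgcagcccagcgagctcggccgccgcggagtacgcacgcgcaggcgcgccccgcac
It held 3 GC boxes and no GGGGCC. RefSeq windows were matched for 7 of the 9 genes. The uncalled genes in that set ranged from 0 GC boxes in Vcp to 4 in Sod1, so the called and uncalled genes overlapped in this count.

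Tbk1 had 48.9, 54.0 and 54.7 CPM (lowest, median and highest) in HOM libraries. It had 52.9, 55.1 and 57.6 CPM in HET libraries and 53.4, 56.7 and 59.4 CPM in WT libraries. Only 3 of 10 HOM libraries were under the lowest WT library, although all 10 lay below both the WT mean and the HET mean. Means were 52.8 ± 2.21 CPM in HOM, 55.2 ± 1.72 in HET and 56.2 ± 1.89 in WT (SD, n = 10, 10 and 8). For HOM over WT the log2 fold change was -0.091 (SE 0.027, 95% interval -0.145 to -0.036, adjusted p = 0.0359, edgeR quasi-likelihood test), or 0.939 of the WT level. HET over WT gave -0.028 (95% interval -0.083 to 0.026, adjusted p = 0.737) and HOM over HET gave -0.063 (95% interval -0.114 to -0.011, adjusted p = 0.475).

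The Tbk1 call was the least secure of the 3. It ended when HOM 1, HOM 9, HOM 10, WT 1, WT 2, WT 4, WT 5 or WT 6 was left out, with log2 fold changes of -0.101 to -0.079 over all single omissions and an adjusted p of at most 0.0921. It also ended when only HOM and WT libraries were fitted (-0.091, adjusted p = 0.0681) and with limma voom (-0.074, adjusted p = 0.0535), without WT 6 and HOM 3 together (-0.083, adjusted p = 0.0944) and without HOM 1 and HOM 2 together (-0.081, adjusted p = 0.0621). The marker scores as covariates (-0.082, adjusted p = 0.243) and a block for the replicate number (-0.079, adjusted p = 0.0838) ended it too. Its direction was negative in each of these fits.

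Nek1 (ENSMUSG00000031644, chr8:60993195-61131346, plus strand, GRCm38), the kinase of cilium and DNA repair, had the lowest log2 fold change of the 9. It had 58.7, 66.4 and 72.5 CPM (lowest, median and highest) in HOM libraries. It had 65.3, 68.8 and 72.9 CPM in HET libraries and 68.4, 72.1 and 80.4 CPM in WT libraries. Of the HOM libraries, 7 of 10 were under the lowest WT library and all 10 below the WT mean, with HOM 1 and HOM 2 the lowest. Means were 66.0 ± 3.99 CPM in HOM, 68.7 ± 2.38 in HET and 73.5 ± 4.32 in WT (SD, n = 10, 10 and 8). An exon of Gm45809 overlaps Nek1 on the same strand over 111 bases. No counts were given for Gm45809, so its level could not be checked.

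The log2 fold change of Nek1 in HOM over WT was -0.153 (SE 0.035, 95% interval -0.225 to -0.082, adjusted p = 0.00844, edgeR quasi-likelihood test), or 0.899 of the WT level. The call held without any single library, where the log2 fold change ran from -0.173 to -0.134, and without HOM 1 and HOM 2 together (-0.120). It ended with meningeal and endothelial marker scores as covariates (-0.172, adjusted p = 0.0565). HET over WT gave -0.097 (SE 0.035, 95% interval -0.169 to -0.026, unadjusted p = 0.00919, adjusted p = 0.42), and all 10 HET libraries lay below the WT mean. HOM over HET gave -0.056 (95% interval -0.124 to 0.012, adjusted p = 0.675), and the departure from the midpoint was 0.041 (95% interval -0.078 to 0.161, adjusted p = 1). The mean HET level lay between those of HOM and WT, and at the threshold used HET was told apart from neither.

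Of 19 genes for other NIMA-related kinases and ciliary transport, 1 rose and 2 fell in HOM, with a median of -0.009. The share called over all genes tested was 7.61% in either direction. Nek7, a kinase of the mitotic spindle and the inflammasome, had 53.3 ± 3.30 CPM in HOM and 58.3 ± 3.49 in WT, a log2 fold change of -0.129 (SE 0.036, adjusted p = 0.029). Nek8, a ciliary kinase, had 3.34 ± 0.343 CPM in HOM and 2.84 ± 0.279 in WT, a log2 fold change of 0.23 (SE 0.067, adjusted p = 0.0315), and so moved the other way from Nek1. Bbs4, a subunit of the BBSome that carries cargo into cilia, had 56.3 ± 2.01 CPM in HOM and 59.8 ± 1.50 in WT, a log2 fold change of -0.085 (SE 0.024, adjusted p = 0.0291). Each of these calls ended without single libraries: WT 3, 6, 7 or 8 for Nek7, HOM 3, HOM 10, WT 6 or WT 7 for Nek8, and WT 2, 3, 6 or 7 for Bbs4.

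**Figure D2:**
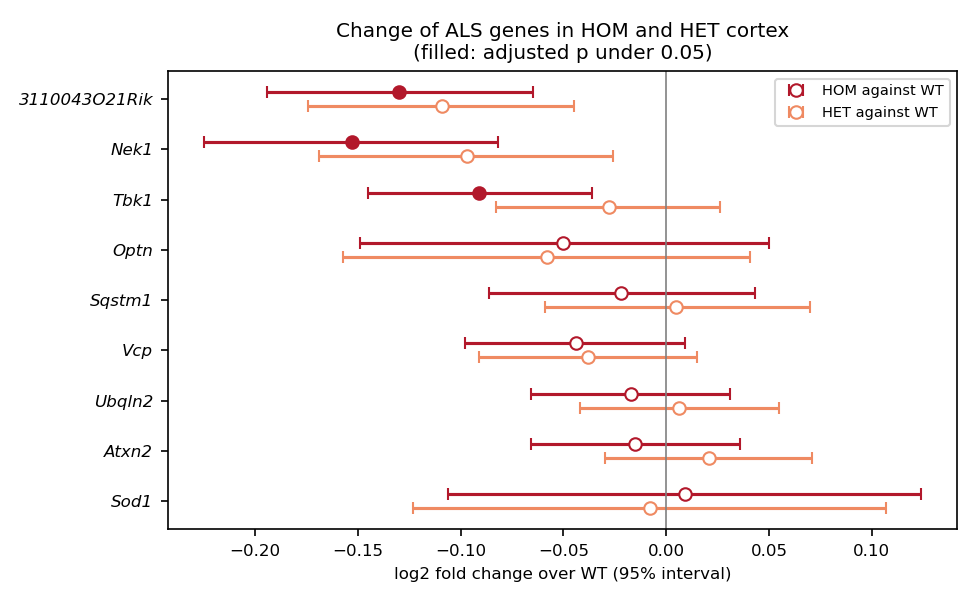
Log2 fold change over WT (x axis) with its 95% interval for each ALS gene in HOM (upper point) and HET (lower point); filled points have an adjusted p under 0.05. The filled points are 3110043O21Rik (-0.130), Nek1 (-0.153) and Tbk1 (-0.091) in HOM, and no HET point is filled.

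The receptors on which TBK1 acts did not pass the test in HOM against WT. Optn (ENSMUSG00000026672, chr2:5020642-5064051, minus strand) had 18.3, 20.6 and 22.8 CPM (lowest, median and highest) in HOM, 17.6, 20.7 and 23.4 in HET, and 19.6, 20.6 and 23.4 in WT. The 3 ranges nearly coincided, and for HOM over WT the log2 fold change was -0.050 (95% interval -0.149 to 0.050, adjusted p = 0.56). Its neighbour 4930551O13Rik on the other strand overlaps it over 73 bases and reached at most 0.0327 CPM. The interval (SE 0.049) was wider than those of Atxn2, Vcp or Ubqln2 and narrower than that of Sod1 (SE 0.056). Optn had 595 to 1744 reads per library, and 3110043O21Rik, with an SE of 0.032, had 819 to 2047. The cause of the wider interval was not tested.

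Optn was also the only one of the 9 whose longest coding transcript held 4 UG units in a row, the kind of repeat TDP-43 is known to bind. The site lies in the 3′ UTR, at position 2198 of 2614 bases, and is shown with its flanks in DNA letters, 5′ to 3′, with the repeat in capitals.
Optn: gggcatcttgtTGTGTGTGtaattctgtgg
Of 14879 tested genes with such a transcript, 25.9% held the same 8 letters, so neither its presence in Optn nor its absence from the others is rare. The longest coding transcripts of the 3 genes that fell held none, and introns were not searched.

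Sqstm1 (ENSMUSG00000015837, chr11:50199366-50210827, minus strand), encoding p62, had 356, 364 and 450 CPM (lowest, median and highest) in HOM. It had 372, 381 and 391 CPM in HET and 358, 381 and 393 CPM in WT. A single library, HOM 1 at 450 CPM, stood above every other of the 28; 8 of 10 HOM libraries lay below the WT mean, and 7 of 10 lay below the lowest HET library. For HOM over WT the log2 fold change was -0.022 with all libraries (95% interval -0.086 to 0.043, adjusted p = 0.713). Without HOM 1 and HOM 2, the shallowest libraries, it was -0.063 and passed the threshold (adjusted p = 0.0466, SE 0.019, edgeR quasi-likelihood test). That pair was picked after seeing the data and held the highest Sqstm1 values of HOM (450 and 382 CPM). Leaving it out therefore lowers the estimate and narrows the spread, and the result is not separate support for a fall. No omission of a single library gave a call (adjusted p of at least 0.0709), and with marker scores as covariates the value was 0.027. The other-strand neighbour Mrnip overlaps it over 580 bases and had 6.23 to 10.1 CPM, a small part of the Sqstm1 signal.

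Among 18 adaptors of TBK1, other autophagy receptors and their partners, 1 rose and 2 fell in HOM, with a median of -0.000. The share over all genes tested was 7.61% in either direction. Ikbke, the kinase closest in sequence to TBK1, had 1.44 ± 0.163 CPM in HOM, 1.09 ± 0.141 in HET and 1.05 ± 0.156 in WT, a log2 fold change of 0.46 for HOM over WT (SE 0.096, adjusted p = 0.00451). Every one of the 10 HOM libraries exceeded the WT mean, a change opposite in direction to that of Tbk1. Traf6, a ubiquitin ligase that binds p62, had 22.1 ± 0.821 CPM in HOM and 24.0 ± 0.866 in WT (-0.122, SE 0.028, adjusted p = 0.00903), and both of these calls held without any single library. Gabarapl1, which docks receptors to the autophagosome membrane, had 601 ± 26.8 CPM in HOM and 635 ± 20.2 in WT (-0.081, SE 0.025, adjusted p = 0.0406), and its call ended without HOM 3, HOM 6, WT 1, WT 2, WT 3, WT 6, WT 7 or WT 8.

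The 2 genes of ubiquitin-dependent protein disposal also gave no call. Vcp (ENSMUSG00000028452, chr4:42979963-43000507, minus strand), the ATPase that pulls ubiquitinated proteins out of membranes and complexes, had 203, 208 and 222 CPM (lowest, median and highest) in HOM, 200, 208 and 226 in HET, and 207, 213 and 236 in WT. In HOM, 9 of 10 libraries lay below the WT mean but only 3 were under the lowest WT library, and the log2 fold change was -0.044 (95% interval -0.098 to 0.009, adjusted p = 0.301). Ubqln2 (ENSMUSG00000050148, chrX:153498232-153501537, plus strand), a shuttle factor to the proteasome, had 168, 181 and 192 CPM in HOM, 177, 182 and 194 in HET, and 178, 181 and 187 in WT. Its HOM values spread beyond the WT range on both sides, with a log2 fold change of -0.017 (95% interval -0.066 to 0.031, adjusted p = 0.692). An exon of 1700022I11Rik overlaps Vcp on the other strand over 352 bases but that gene reached at most 0.164 CPM. Both intervals lay above the Nek1 estimate of -0.153. The Vcp interval overlapped that of Nek1 (-0.225 to -0.082), and the difference between these genes was not tested.

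Of 25 VCP cofactors, with a median of 0.000, 1 rose and none fell in HOM, against 7.61% of all genes called in either direction. The gene was Nploc4, which recruits ubiquitinated cargo to VCP, at 72.6 ± 4.11 CPM in HOM and 67.6 ± 3.46 in WT, a log2 fold change of 0.10 (SE 0.032, adjusted p = 0.0484). Its call ended in 23 of 28 fits that each left out 1 library. Of 12 genes for other ubiquilins and shuttle factors, none was called in either direction, with a median of 0.014. DESeq2 and limma voom each called 1 of them. Neither list's count was tested against the share over all genes.

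Atxn2 (ENSMUSG00000042605, chr5:121711337-121816493, plus strand), whose human product carries the polyglutamine stretch that modifies ALS risk, had 87.6, 95.9 and 98.0 CPM (lowest, median and highest) in HOM. It had 91.5, 96.9 and 102 CPM in HET and 93.2, 95.5 and 98.9 CPM in WT. The groups overlapped over most of their range, and for HOM over WT the log2 fold change was -0.015 (95% interval -0.066 to 0.036, adjusted p = 0.756). Its neighbour Sh2b3 on the other strand overlaps it over 99 bases and had 23.4 to 29.3 CPM. Of 13 relatives and partners of ataxin-2, with a median of -0.038, 1 fell and none rose, against 7.61% of all genes called in either direction. That gene was Ddx6, a helicase of processing bodies, at 178 ± 8.25 CPM in HOM and 190 ± 5.01 in WT (-0.098, SE 0.028, adjusted p = 0.0294), whose call ended without HOM 2, HOM 10, WT 6 or WT 7.

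Sod1 (ENSMUSG00000022982, chr16:90220742-90226322, plus strand) had 123, 147 and 206 CPM (lowest, median and highest) in HOM, 142, 148 and 161 in HET, and 141, 151 and 158 in WT. The HOM group held both the lowest and the highest of the 28 values, in HOM 1 and HOM 2, while the other 8 HOM libraries lay between 139 and 158 CPM. For HOM over WT the log2 fold change was 0.009 (SE 0.056, 95% interval -0.106 to 0.124, adjusted p = 0.946). It was -0.021 without HOM 1 and HOM 2, so no direction can be given.

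Sod2 and Ccs, related to Sod1 by function, fell in HOM. Sod2, the superoxide dismutase of mitochondria, had 109 ± 4.56 CPM in HOM, 117 ± 3.61 in HET and 123 ± 4.31 in WT, a log2 fold change of -0.173 for HOM over WT (SE 0.027, adjusted p = 0.000243), and 9 of 10 HOM libraries were under the lowest WT library. Its call held in every setting tried. Ccs, the chaperone that loads copper into SOD1, had 11.7 ± 1.00 CPM in HOM, 12.4 ± 0.905 in HET and 13.2 ± 0.575 in WT (-0.179, SE 0.048, adjusted p = 0.0233), and its call ended without WT 6. Of the 15 genes of superoxide and copper handling, with a median of 0.072, these 2 fell and 1 rose. Over all genes tested 7.61% were called in either direction. The gene that rose was the copper- and zinc-binding Mt3, at 176 ± 19.7 CPM in HOM and 154 ± 11.7 in WT (0.19, SE 0.058, adjusted p = 0.0412), whose call ended without HOM 1, HOM 2, HOM 9, HOM 10, WT 1, WT 2, WT 5, WT 6 or WT 7.

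**Figure D3:**
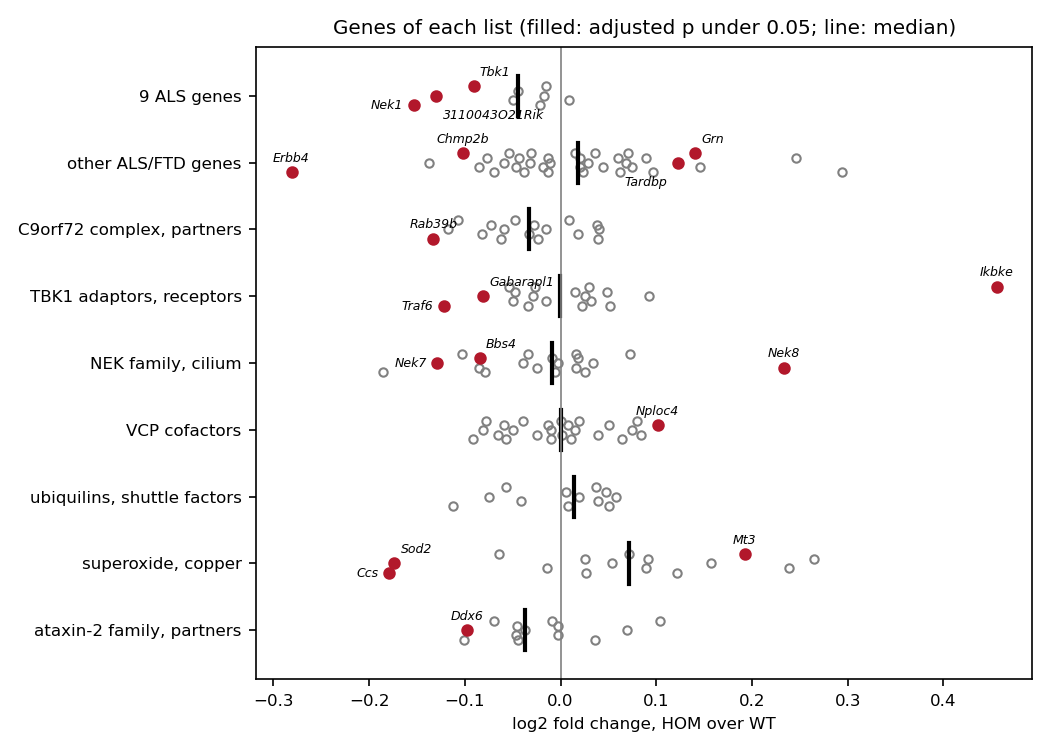
Log2 fold change of HOM over WT (x axis) for the 9 ALS genes and each related list; filled points, with names, have an adjusted p under 0.05 and black lines are medians. List medians run from -0.044 for the 9 genes to 0.072 for superoxide and copper handling, and the called genes of most lists lie on both sides of 0 or number 1.

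Of 36 other genes of ALS and frontotemporal dementia, 2 rose and 2 fell in HOM, with a median of 0.018. The share called over all genes tested was 7.61% in either direction. Besides Tardbp, whose call ended without WT 1, the gene that rose was Grn, encoding the lysosomal protein progranulin, at 47.7 ± 3.19 CPM in HOM and 43.3 ± 1.74 in WT (0.14, SE 0.038, adjusted p = 0.0235). The call of Grn ended without WT 2 or WT 6. Erbb4, a neuregulin receptor of cortical interneurons, fell to 82.6 ± 7.21 CPM in HOM, against 100 ± 3.98 in WT (-0.281, SE 0.045, adjusted p = 0.000388), and all 10 HOM values were under the lowest WT library. Chmp2b, a subunit of the endosomal sorting complex, had 46.8 ± 2.12 CPM in HOM and 50.2 ± 1.52 in WT (-0.102, SE 0.030, adjusted p = 0.038), a call that ended in 10 of the 28 fits that left out 1 library. The log2 fold change of Erbb4 was below that of each of the 9 genes, a difference that was not tested.

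Per kilobase of exon, the levels of the 9 genes covered a wide range, and the order was nearly fixed across libraries. The length used was that of all annotated exons merged, 3.97 kilobases for Sod1 and 15.7 for Atxn2. Their longest coding transcripts have 641 and 4472 bases, so the order between genes depends on the choice of length. Sqstm1 was the highest by this measure, at 113 ± 5.28 CPM per kilobase (SD over all 28 libraries), and stood above Ubqln2, at 54.3 ± 1.68, in all 28. Vcp followed at 43.6 ± 1.65 and lay above Sod1, at 38.0 ± 3.38, in 27 of 28. Tbk1, at 14 ± 0.608, and Nek1, at 8.76 ± 0.585, each stood above the next gene in all 28 libraries. At the low end Atxn2 (6.09 ± 0.204), 3110043O21Rik (5.85 ± 0.340) and Optn (5.52 ± 0.403) were not cleanly ordered: Atxn2 lay above 3110043O21Rik in 20 libraries, and 3110043O21Rik above Optn in 23. By this measure the genes that fell held ranks 5 (Tbk1), 6 (Nek1) and 8 (3110043O21Rik) of the 9. The uncalled Atxn2 and Optn held ranks 7 and 9, and the 4 highest were not called either.

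**Figure D4:**
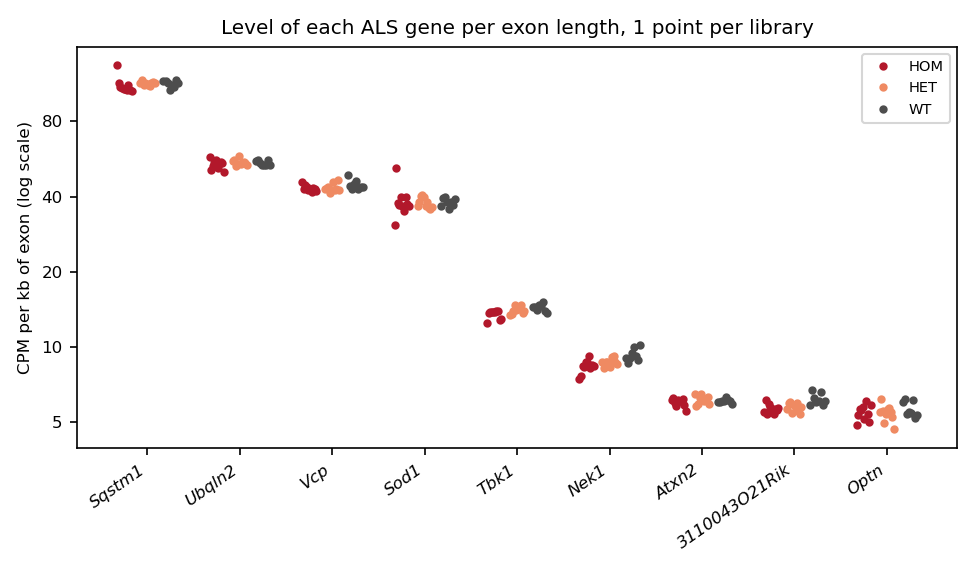
CPM per kilobase of exon (y axis, log scale, all annotated exons merged) of each ALS gene in every HOM, HET and WT library, ordered by the mean over 28 libraries. The genes span 113 for Sqstm1 down to 5.52 for Optn, and the last 3 overlap.

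In HET cortex none of the 9 genes was called against WT, and none of the 16110 genes tested was (edgeR quasi-likelihood test, 0% in either direction; 1547 genes had an unadjusted p under 0.05, and DESeq2 called 12 and limma voom 14). Among the 9, 3110043O21Rik and Nek1 had an unadjusted p under 0.05. The other values were -0.028 for Tbk1, -0.058 for Optn, 0.005 for Sqstm1, -0.038 for Vcp, 0.006 for Ubqln2, 0.021 for Atxn2 and -0.008 for Sod1, each with an interval across 0. In HOM against HET 0.0372% of genes were called in either direction, and none of the 9 was. No gene was called for a departure from a straight line over 0, 1 and 2 alleles (0%, with 456 genes at an unadjusted p under 0.05). DESeq2 and limma voom called none either. The absence of calls does not show that the steps between alleles were equal.

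A slope over the number of Q331K alleles was fitted to all 28 libraries, and shares its HOM and WT libraries with the comparison above, so it is not separate support. Over all genes 7.78% had a called slope in either direction and 3.79% a called fall. Nek1 had a slope of -0.076 log2 units per allele (SE 0.017, adjusted p = 0.00767), 3110043O21Rik -0.063 (SE 0.016, adjusted p = 0.017) and Tbk1 -0.046 (SE 0.013, adjusted p = 0.0303). The other 6 genes were not called. The Tbk1 slope lost its call without HOM 9, HOM 10, WT 2 or WT 6.

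Markers of several cell types moved with genotype too. Calls in HOM against WT took in 7.61% of all genes tested. Of 11 microglial markers 7 rose in HOM, and the list summed to 520 to 653 CPM in HOM, 475 to 555 in HET and 465 to 547 in WT. Of 7 interneuron markers Gad1 (-0.23) and Pvalb (-0.28) fell and Sst (0.28) rose, with sums of 837 to 997 CPM in HOM, 912 to 976 in HET and 904 to 1043 in WT. Markers of oligodendrocyte precursors rose in 3 of 5, with sums of 131 to 154, 120 to 151 and 113 to 130 CPM in HOM, HET and WT, and astrocyte markers in 2 of 8, with sums of 4557 to 5296, 4426 to 5230 and 4419 to 5373 CPM. None of the 8 excitatory neuron, 8 oligodendrocyte, 8 striatal or 5 blood markers was called, and no marker of these 4 lists was at 0 in any library. Uncalled values still differed: all 8 striatal markers lay below WT in HET (median -0.505), and 5 of 8 in HOM (median -0.026). All 8 oligodendrocyte markers lay below WT in HET (median -0.125), and 7 of 8 in HOM (median -0.085). The part of these cell types in the falls of 3110043O21Rik, Nek1 and Tbk1 was not tested.

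Markers of meninges and vessels also moved with genotype, where 3.9% of all genes tested were called higher in HOM against WT. The 10 meningeal markers summed to 257 to 1158 CPM in HOM, 322 to 829 in HET and 222 to 507 in WT, with 2 of 10 called higher, and the 11 endothelial and mural markers to 359 to 440, 343 to 437 and 346 to 383 CPM, with 4 of 11 called higher. With the scores of both lists as covariates, as given above, none of 3110043O21Rik, Nek1 and Tbk1 was called in HOM against WT. Their log2 fold changes were close to those without covariates, with an SE of 0.041 for 3110043O21Rik against 0.032 without covariates. In that fit 114 of all genes were called, against 1226 without covariates. Of the called genes named here from the related lists, Sod2 alone passed in it.

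**Figure D5:**
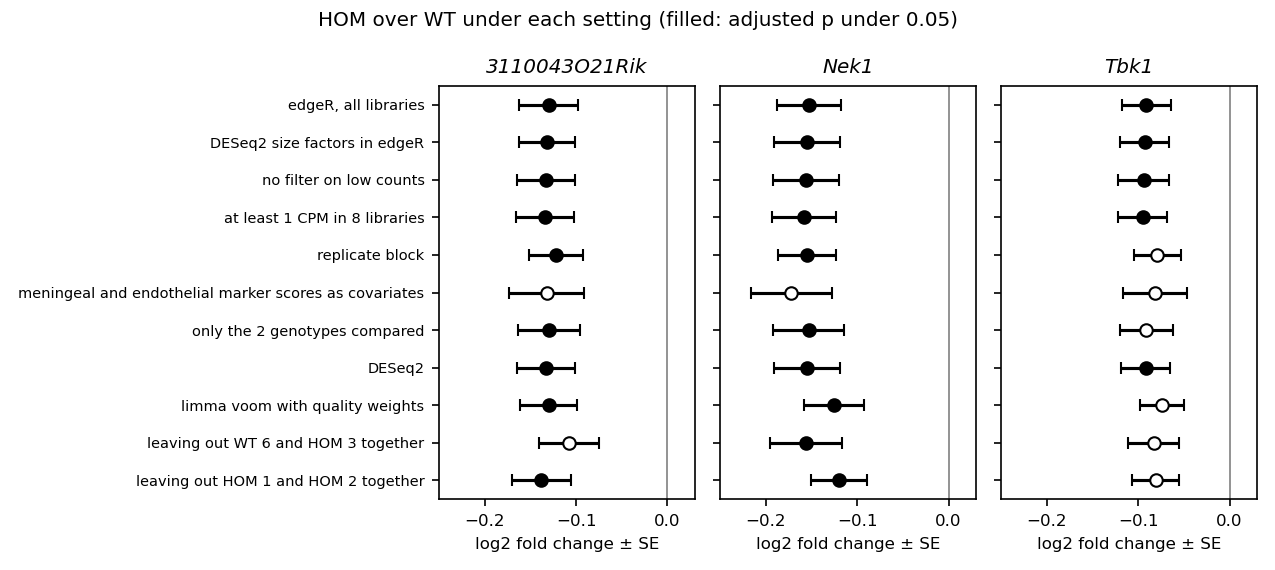
Log2 fold change of HOM over WT (x axis, with SE) for 3110043O21Rik, Nek1 and Tbk1 under each setting; filled points have an adjusted p under 0.05. All points lie below 0; 2 settings for 3110043O21Rik, 1 for Nek1 and 6 for Tbk1 are unfilled.

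The transcripts whose levels followed 3110043O21Rik most closely over the 28 libraries, which share genotype and library quality, were Mcts2 (Pearson r = 0.74, Spearman rho = 0.76), Tceal6 (0.74 and 0.75), Zfp248 (0.73 and 0.67), Rps6ka5 (0.72 and 0.70) and Nup133 (0.72 and 0.57). After each genotype's mean was removed the Pearson values were 0.60, 0.60, 0.63, 0.53 and 0.47. The genes were picked for the highest correlation in these same libraries, so those values are not separate support for a likeness. For Nek1 they were Phip (0.80 and 0.63), Rsf1 (0.76 and 0.65), Ctdspl2 (0.76 and 0.69), Zfyve16 (0.76 and 0.64) and Brwd3 (0.76 and 0.63), with 0.74, 0.62, 0.59, 0.71 and 0.71 after the genotype means were removed. HOM 1 and HOM 2, the shallowest libraries, had the lowest Nek1 levels of the 28. The 2 sets had no gene in common, and these values describe the 28 libraries only.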

How the data were processed

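The deposited values were raw read counts per gene and library, whole numbers that the authors had not normalized, as the values themselves show. Trim Galore 0.4.3, HISAT2 2.0.5 and GRCm38 are named in the submitters' processing notes; per the labels' protocols, libraries came from a stranded mRNA kit. Neither the program that counted reads nor its strand setting or annotation is given here by any source, so reads of a gene and of its antisense neighbour may not be separated. Groups came from the genotype in the titles. The table held 25965 rows for 25900 identifiers, and the 57 identifiers that filled several rows were summed. No library pair agreed within sampling noise (chi-square over degrees of freedom was 6.33 or more in all 378 pairs).

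Genes were filtered with filterByExpr (16110 left), scaled by TMM and tested with edgeR 4.0.16 in R 4.3.3 (quasi-likelihood, robust, two-sided) in 1 fit of all 28 libraries without covariates, after the procedure had been tested on simulated data. Benjamini-Hochberg adjustment ran over all genes tested, with a threshold of 0.05. CPM use TMM-scaled library sizes. The depth of 30.5 to 74.9 M counts (M for 1000000 reads) and a biological coefficient of variation of 8.46% set the precision. The alternatives were DESeq2 1.42.0, its size factors in edgeR, limma 3.58.1 voom with quality weights, a minimum of 1 CPM in 8 libraries or no minimum, the compared genotypes alone, meningeal and vascular marker scores as covariates, a block for the replicate number, and single libraries omitted one by one. Omitting WT 6 with HOM 3, and HOM 1 with HOM 2, was added after seeing the data.

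The 9 genes and the lists were chosen with earlier results of these data known. The naming rule took the 9 genes, Tardbp, Smcr8 and Wdr41, up to 4 called genes of each related list by smallest p, and the 5 genes with a mean of at least 1 CPM most correlated with 3110043O21Rik and with Nek1, leaving out clone-like names. Sequences are from RefSeq (GRCm38.p6 promoter windows of 250 bases) and from the reference transcripts; Nek1 and Ubqln2 had no window in the table used.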

Additional observations from a re-analysis of the deposited data

Results flagged for a closer look

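In each genotype the highest and the lowest library was compared with its nearest neighbour, for the total count, the 9 genes, Tardbp, Smcr8 and Wdr41. Among such groups, 39 here, chance alone flags about 1 in 20. Sod1 reached 206 CPM in HOM 2, against 158 CPM in the next HOM library, a gap of 0.578 of the group's range where 0.466 is the limit for 10 libraries. Sqstm1 reached 450 CPM in HOM 1, against 382 CPM in the next (0.723 of the range). These 2 libraries are the shallowest of the 28, and the Sod1 and Sqstm1 results without them are given above. Tardbp reached 358 CPM in HET 10, against 336 CPM in the next HET library (0.483 of the range). Smcr8 was lowest in WT 3, at 50.8 CPM against 51.5 CPM in the next WT library (0.537 of the range, limit 0.526 for 8 libraries), a gap that was large only beside the narrow WT range.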

How the results depend on the processing

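Among the 9 genes in HOM against WT, 3 were called. This was 0 with marker scores as covariates, 1 without WT 6 and HOM 3, and 2 to 3 without single libraries, and the slope per allele gave the same counts. Over all genes 1226 were called in HOM against WT. The count was 737 with the replicate block, 114 with covariates, 513 without WT 6 and HOM 3, and 596 to 1342 without single libraries (718 without WT 2 and 596 without WT 6). The slope called 1254 genes, against 821 with the block, 138 with covariates, 612 without WT 6 and HOM 3, and 688 to 1399 without single libraries. HET against WT called 0 genes, against 1 with the 1 CPM filter, 4 with the compared genotypes alone, 12 with DESeq2, 14 with voom, 2 without HOM 1 and HOM 2, and 0 to 3 without single libraries. HOM against HET called 6, against 3 with covariates, 50 with DESeq2, 42 with voom and 3 to 15 without single libraries. None of the 9 was called in these last 2 comparisons in any fit run. Each related list had 0 to 6 called genes in HOM against WT over all settings.

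Values on the log2 scale changed sign for genes that were not called. In HOM against WT with covariates Atxn2 was 0.033, Sod1 -0.016, Sqstm1 0.027 and Ubqln2 0.030. Sod1 was -0.0047 with voom and -0.021 without HOM 1 and HOM 2, and ran from -0.048 to 0.036 without single libraries, while Wdr41 ran from -0.0018 to 0.017. In HET against WT Sod1 was 0.0059 with the replicate block, and Sqstm1 was -1.6e-05 without WT 6 and HOM 3. Without single libraries Sod1 ran from -0.0228 to 0.0020, Sqstm1 from -0.0065 to 0.0127 and Ubqln2 from -0.0030 to 0.0119. The cause was not tested.

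Replicate numbers did not pair the libraries: over 26 same-numbered pairs, deviations from the group means correlated at -0.164 to 0.183 (median 0.0108). With the number as a block, 2 of the 9 genes were called in HOM against WT, and Tbk1 was not (-0.079, adjusted p = 0.0838).

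Each of the 9 genes had at least 595 reads in every library. Differences of a few percent lie near the spread between libraries, and total counts do not show which allele or cell type a transcript came from.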
